A study of Mus musculus with 2 samples.

Results

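The BCL2 family decides whether the mitochondria of a cell are permeabilised, the step that commits most cells to apoptosis. The 9 family genes described here were taken as a named list, which was chosen with earlier results of these data known. They were the survival genes Bcl2, Bcl2l1, Mcl1, Bcl2a1b and Bcl2a1d, the BH3-only death genes Bcl2l11 and Pmaip1, and the effector genes Bax and Bak1. All 9 of them, of 28009 genes listed, had UMIs (unique molecular identifiers, 1 per captured transcript molecule) in both libraries. They were compared between tissues, between cells with and without a Foxp3 UMI, and between cells with high and low Ccl5.

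IL-10-producing CD4+ T cells were sorted by their eGFP signal from the spleen and the small intestine of IL-10eGFP Foxp3mRFP double reporter mice, Foxp3+ cells included, and were profiled by droplet single-cell RNA sequencing with 1 library per tissue. Both libraries came from mice injected with anti-CD3 antibody, 15 µg on days 0 and 2, and killed 4 h after the last injection, at 8 to 16 weeks of age. Untreated mice were not analysed here, and the number of mice behind each library is not given in the sources used here. Splenic and intestinal cells differed in preparation as well as in origin, since the gut lymphocytes were released with EDTA or collagenase at warm temperature, so tissue, library and preparation cannot be told apart.

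Survival proteins of this family, such as BCL-2, BCL-XL (from Bcl2l1), MCL-1 and A1 (from the Bcl2a1 genes), bind and hold the death proteins. BH3-only proteins are the sensors: BIM (from Bcl2l11) responds to cytokine withdrawal and T cell receptor signals and NOXA (from Pmaip1) mainly antagonises MCL-1. When the survival proteins are overwhelmed, BAX and BAK form the pores in the outer mitochondrial membrane. In T cells BCL-2 is sustained by interleukin-7, A1 and BCL-XL are induced on activation, and BIM removes activated cells when a response ends.

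After filtering, 1469 splenic and 1278 intestinal cells were kept, with 9161899 and 5033783 UMIs and medians of 5408 and 3696 UMIs per cell. No barcode was shared between the libraries. Ccl5-high cells (Ccl5 at 2000 CPM or more, where CPM is UMIs per 1000000 UMIs) numbered 191 among splenic (13.0%) and 1121 among intestinal cells (87.7%), and cells with a Foxp3 UMI were 280 and 28. Summed T cell markers were at 3662 and 4550 CPM, summed B cell markers at 6.44 and 14.1 (Cd79a with 6 and 26 UMIs, Cd79b with 53 and 40, Ms4a1 with 0 and 2), myeloid markers at 165 and 144 (mostly Cst3, with Lyz2 at 65 and 0 UMIs), epithelial markers at 32.3 and 16.9 (Epcam with 290 and 39 UMIs, Krt18 with 5 and 43) and erythroid markers at 0.327 and 0. Despite the CD4+ sort, CD8 markers were at 13.8 and 353 CPM: Cd8a had 0 UMIs in the spleen and 1009 in the intestine, Cd8b1 had 126 and 767, and 105 and 204 kept cells had a UMI of either. The part of these markers in the differences between tissues was not tested, except that the cells with a CD8 UMI were left out in an alternative. With 1 library per tissue no test was possible: levels are CPM over the summed UMIs of a group, and every 95% interval covers counting error only.

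Bcl2a1b and Bcl2a1d are copies of the A1 gene on chromosome 9, and their upstream windows are shown because the copies behaved differently although they are nearly alike. The stretches (RefSeq, GRCm38.p6) lie at chr9:89199023-89199164 on the plus strand and chr9:88731915-88732050 on the minus strand, upstream of each gene, with bases that differ or face a gap in capitals.
Bcl2a1b: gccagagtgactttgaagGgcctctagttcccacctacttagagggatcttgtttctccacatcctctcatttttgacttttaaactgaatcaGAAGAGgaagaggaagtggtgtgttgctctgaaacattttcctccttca
Bcl2a1d: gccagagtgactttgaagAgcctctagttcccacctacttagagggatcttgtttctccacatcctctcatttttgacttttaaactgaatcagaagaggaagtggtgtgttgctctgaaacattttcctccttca
Of 142 aligned positions 135 were identical (95.1%), 1 was a substitution and 6 were bases that Bcl2a1b had in addition. Both genes' windows held TGANTCA, where N is any base (both strands searched), in the stretches shown as tgaatca. Of 32851 windows of 250 upstream bases, 6.75% held TGANTCA. The transcripts are alike too. Of the 50-base windows in the last 500 bases of the Bcl2a1d transcript, 12.2% occurred in no other Bcl2a1 transcript, against 33.3% for Bcl2a1b. Of the 100-base windows these were 42.9% and 67.1%. The read length is not given in the sources used here, so the split of A1 UMIs between the copies is uncertain. Bcl2a1d overlaps an annotated gene on the opposite strand (Gm10634), Bcl2a1b (Gm29094) and Bax (Gm45808) each overlap 1 on their own strand, Bcl2 overlaps 3, and Bak1 overlaps Ggnbp1 on the opposite strand.

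The window before 1 of the 2 listed starts of Bcl2l11 (RefSeq, GRCm38.p6, chr2:128125788-128126037, plus strand) is shown because Bcl2l11 differed most between the tissues. Capitals mark GTAAACA, a motif bound by FOXO factors, which lies 227 to 221 bases before the start.
Bcl2l11: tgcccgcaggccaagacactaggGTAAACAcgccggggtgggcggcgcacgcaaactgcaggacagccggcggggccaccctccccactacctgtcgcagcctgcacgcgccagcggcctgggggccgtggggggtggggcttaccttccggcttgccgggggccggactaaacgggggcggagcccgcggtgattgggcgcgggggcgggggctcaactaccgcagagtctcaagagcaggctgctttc
Among the 11 windows listed for 8 of the 9 genes this was the single window with GTAAACA on either strand, and 3.17% of all windows held it. The NF-κB consensus was in 1 of the 11 windows, of Bcl2l1, against 3.9% of all windows. A match describes the letters only.

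Between the tissues, both BH3-only genes, Mcl1 and Bcl2a1d were past 1.5-fold, all lower in the spleen. Bcl2l11 was at 33.7 CPM in splenic cells (95% interval 30.1 to 37.7) and at 158 in the small intestine (147 to 169), 4.68-fold higher in the intestine (4.10 to 5.35). Pmaip1 was at 14.2 (11.9 to 16.8) and 48.5 (42.6 to 55.0), 3.42-fold higher in the intestine (2.75 to 4.26). Mcl1, the short-lived survival gene whose product NOXA binds, was also higher in the intestine, at 244 (231 to 258) against 121 (114 to 129), a 2.01-fold difference (1.85 to 2.18).

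The A1 copies differed from each other. Bcl2a1d was at 176 CPM in the spleen (168 to 185) and 332 in the intestine (317 to 349), 1.89-fold higher in the intestine (1.76 to 2.02). Bcl2a1b, the most abundant of the 9 genes in both tissues, was at 394 (381 to 407) and 467 (449 to 487), a ratio of spleen to intestine of 0.843. The intestine thus held 0.711 Bcl2a1d UMIs per Bcl2a1b UMI (0.668 to 0.758) and the spleen 0.448 (0.422 to 0.475), a pair chosen after its values were seen.

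The remaining survival genes and the effectors were within 1.5-fold. Bcl2 was at 58.6 in the spleen (53.8 to 63.8) and 43.3 in the intestine (37.7 to 49.5), a ratio of 1.35 (1.15 to 1.59). Bax was at 239 (229 to 249) and 162 (151 to 174), a ratio of 1.47 (1.36 to 1.60), and Bak1 at 87.4 (81.5 to 93.7) and 66.0 (59.1 to 73.4), a ratio of 1.33 (1.16 to 1.51). For Bcl2l1 the interval of the ratio, 0.715 to 1.04, held 1. In all, 4 of the 9 genes were past 1.5-fold and all 4 were lower in the spleen, where 47.3% of 9873 genes with enough UMIs were past 1.5-fold in either direction, 24.5% were higher and 22.8% lower in the spleen. At 2-fold these were 3 of the 9 genes, against 25.8% of all genes. Without ribosomal and mitochondrial genes in the total, which moved the median of all genes by 0.15 on the log2 scale, Bax (log2 ratio 0.71, against 0.56 as reported) and Bcl2 (0.59, against 0.44) also passed 1.5-fold, both higher in the spleen. Leaving the 20 leading genes by UMIs out of the total moved the median the other way, by -0.16. Over 8 alternatives the log2 ratio was between 0.40 and 0.71 for Bax and between 0.28 and 0.74 for Bcl2.

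**Figure D1:**
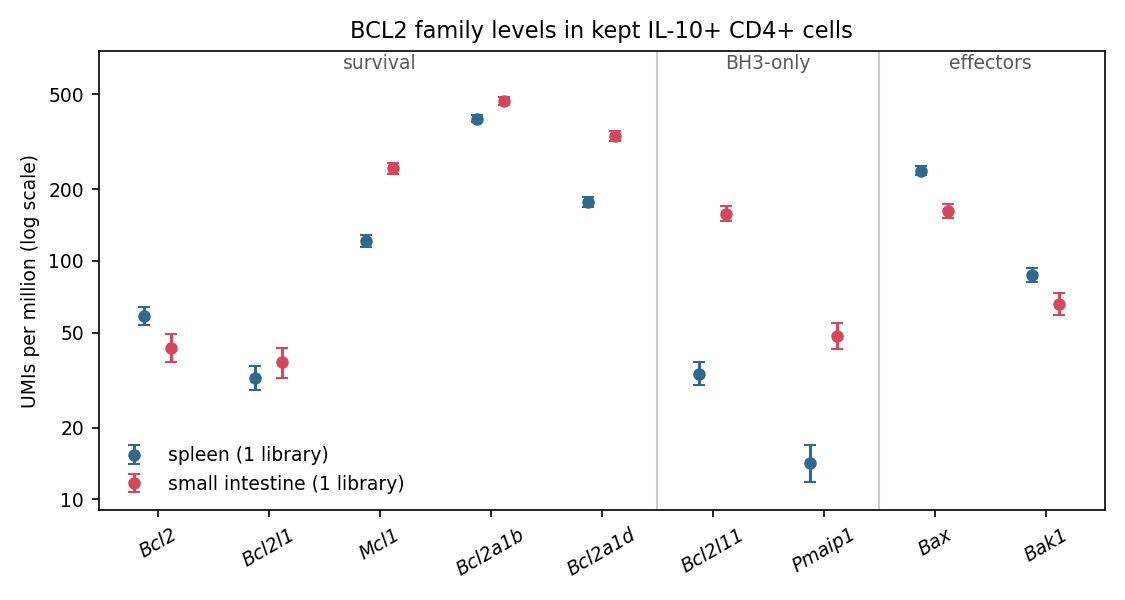
CPM of the 9 genes (log axis) in kept cells of each tissue, 1 library each; bars are exact Poisson 95% intervals. Bcl2l11, Pmaip1, Mcl1 and Bcl2a1d sit higher in the small intestine, and Bcl2, Bax and Bak1 higher in the spleen.

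The shares of cells followed the levels. With each cell thinned to 2000 UMIs, 26.8% of intestinal cells (24.2 to 29.4) had a Bcl2l11 UMI and 6.501% of splenic cells (5.28 to 7.90), while the unthinned shares were 40.8% and 16.2%. For Pmaip1 the thinned shares were 9.57% and 2.56%, for Mcl1 37.7% and 23.4%, and for Bcl2a1d 43.8% and 24.6%. Bax was the other way round, with 27.4% of intestinal and 38.0% of splenic cells, as were Bcl2, with 7.18% and 10.9%, and Bak1, with 11.8% and 15.1%. Most cells therefore had no UMI of Bcl2 or Bcl2l11 at this depth, which does not show that they lacked the transcript. No cell type known to lack these genes was identified in the libraries, so the share that free RNA alone would give was not measured.

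Immediate early genes differed in the same direction as Bcl2l11, Pmaip1 and Mcl1. A list of 10 early response and heat shock genes, added after the data were seen, summed to 1384 CPM in the spleen and 3674 in the intestine. Of the 8 with enough UMIs, 7 were past 1.5-fold lower in the spleen, against 22.8% of 9873 genes. Fos was at 102 and 444, and Fosb at 12.6 and 131. Their part in the differences of the 9 genes was not tested.

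Bcl2l11 was also the gene that followed the Ccl5-high state in both tissues. In the spleen it was at 66.5 CPM in Ccl5-high cells (51.7 to 84.1) and 29.5 in the others (25.9 to 33.5), 2.25-fold higher (1.70 to 2.95). In the intestine it was at 173 (161 to 186) and 58.8 (41.8 to 80.4), 2.94-fold higher (2.13 to 4.16). Over 12 alternatives the splenic log2 ratio was between 0.588 and 1.84, against 1.17 as reported. The lowest of these was barely past 1.5-fold, which is 0.585 on this scale. The intestinal log2 ratio was between 1.03 and 1.72. The thinned share of cells with a Bcl2l11 UMI was 5.004% in the splenic cells that were not Ccl5-high, 16.6% in the splenic Ccl5-high cells, 10.2% in the other intestinal cells and 29.1% in the intestinal Ccl5-high cells. The highest of the 4 groups had no overlap with any other in level or share. Summed Cd8a and Cd8b1 were at 405 CPM in intestinal Ccl5-high cells and 7.54 in the other intestinal cells. With every cell that had a Cd8a or Cd8b1 UMI left out, the log2 ratio of Bcl2l11 between the intestinal states was 1.61, against 1.55 with them.

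Bcl2a1d followed the Ccl5-high state in the spleen. It was at 386 (349 to 426) in splenic Ccl5-high cells and 149 (141 to 158) in the others, 2.58-fold higher (2.30 to 2.90), whereas the intestinal values were 332 and 338, a ratio of 0.981 (0.852 to 1.13). Splenic Ccl5-high cells were thus near the intestinal level, and the ratio of spleen to intestine among Ccl5-high cells was 1.17 (1.04 to 1.30). Bcl2a1b was at 536 and 376 in the spleen, a ratio of 1.43, and at 458 and 529 in the intestine, a ratio of 0.865.

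Of the 9 genes, 2 were past 1.5-fold between the splenic states, both higher in Ccl5-high cells, where 18.1% of 6857 genes were past it, 6.94% higher and 11.2% lower. Both were also past 2-fold, with 5.24% of genes. In the intestine 1 gene was past it, Bcl2l11, against 24.7% of 5811 genes in either direction, 8.93% higher and 15.8% lower, and it was past 2-fold with 8.64% of genes. Bcl2 was at 51.0 and 59.6 between the splenic states and at 41.6 and 54.3 between the intestinal states, with 1 inside the interval of each ratio. The log2 ratio of Bcl2 depended on the setting. Over 12 alternatives it was between -1.09 and 0.03 in the spleen and between -1.07 and -0.05 in the intestine. With pooled size factors or thinning, intestinal Bcl2 was past 1.5-fold lower in Ccl5-high cells. The state was also read from Nkg7, a cytotoxic granule gene, in place of Ccl5, which set 520 splenic cells against 949. Then 5 of the 9 genes were past 1.5-fold in the spleen, 4 higher and 1 lower in the Nkg7-high cells. The lower one was Bcl2, with a log2 ratio of -1.09. The share of all genes past 1.5-fold is not given for this split, so the count has no background.

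**Figure D2:**
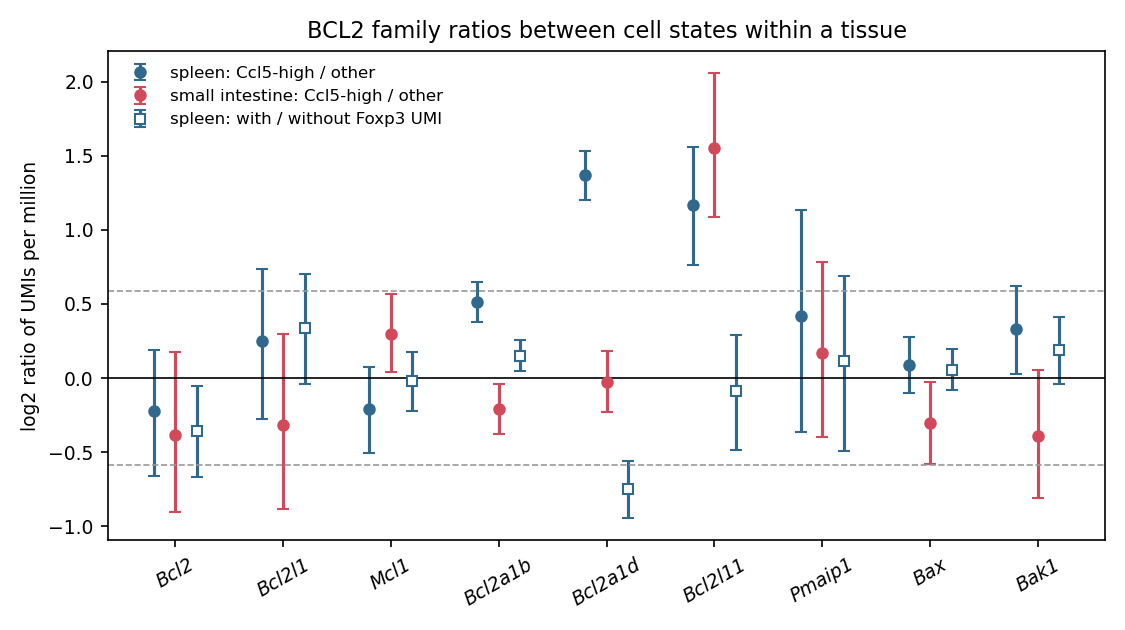
Log2 ratio of CPM between cell states within each tissue for the 9 genes; bars are exact 95% intervals for counting error, and dashed lines mark 1.5-fold. Bcl2l11 is above the upper line for the Ccl5-high state in both tissues, and Bcl2a1d in the spleen.

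Within the Ccl5-high state the tissues still differed. Bcl2l11 was 2.60-fold (2.03 to 3.38), Mcl1 2.34-fold (1.92 to 2.87) and Pmaip1 2.69-fold (1.68 to 4.55) higher in intestinal than in splenic Ccl5-high cells. The effectors were higher in the spleen: Bax at 252 against 157, a ratio of 1.60 (1.39 to 1.85), and Bak1 at 107 against 63.4, a ratio of 1.69 (1.34 to 2.11). These 5 of 9 genes were past 1.5-fold, with 37.6% of 6869 genes, 17.7% higher and 19.9% lower in the spleen. The 3 that were higher in the intestine were past 2-fold, with 16.7% of genes. Ccl5 itself was at 23976 in the splenic and 56081 in the intestinal cells of this state, so the state was not of equal strength in the tissues.

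Among cells that were not Ccl5-high, Bcl2l11 was 1.99-fold (1.38 to 2.80), Mcl1 1.65-fold (1.37 to 1.98), Pmaip1 3.20-fold (2.05 to 4.85) and Bcl2a1d 2.26-fold (1.95 to 2.61) higher in the intestine. These were 4 of 9 genes, against 35.9% of 5797 genes, 18.3% higher and 17.6% lower in the spleen. Bcl2a1d and Pmaip1 were past 2-fold, with 17% of genes. Bax was at 237 and 195, a ratio of 1.22 (1.02 to 1.47), and Bak1 at 84.9 and 83.0, a ratio of 1.02 (0.777 to 1.37). The higher Bcl2l11, Mcl1 and Pmaip1 of the intestine was therefore present in both states, whereas the effectors were past 1.5-fold in Ccl5-high cells as reported. That call ended for Bax without the 20 leading genes in the total (log2 ratio 0.54), and for Bak1 with the state read from Nkg7 (0.58).

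**Figure D3:**
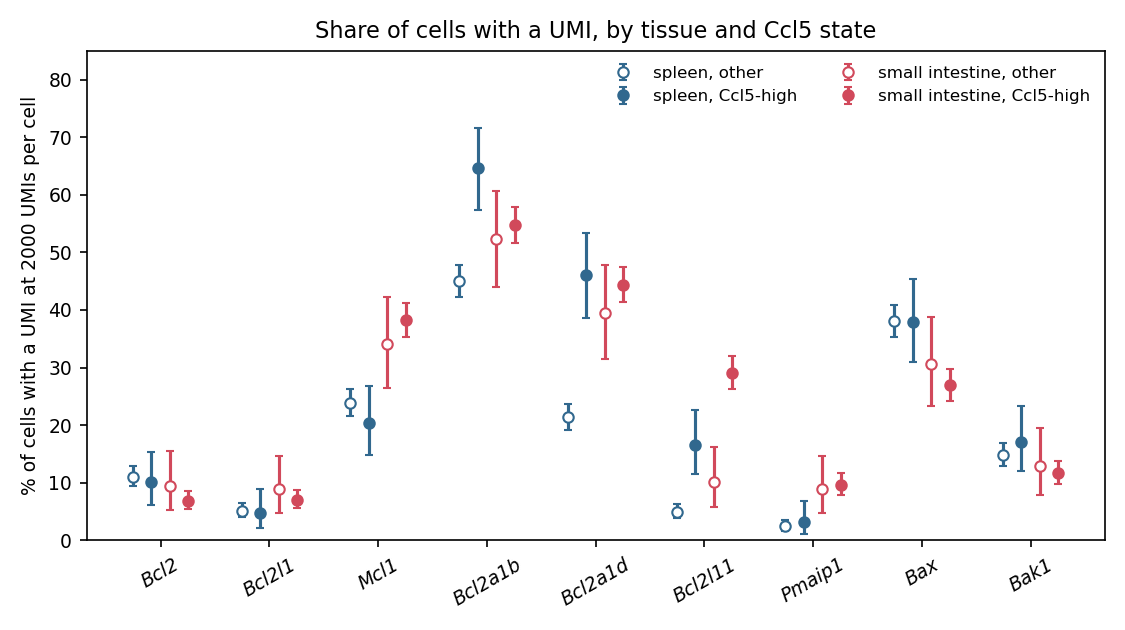
Percent of cells with a UMI of each gene after thinning every cell to 2000 UMIs, for Ccl5-high (filled) and other (open) cells of each tissue; bars are exact binomial 95% intervals. The Bcl2l11 share is 5.004% and 16.6% in the splenic and 10.2% and 29.1% in the intestinal groups.

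A UMI of Foxp3, the lineage factor of regulatory T cells, marked few differences in the spleen. Cells with a Foxp3 UMI were deeper, with a median of 7685.5 against 5051 UMIs, and 146 of the 280 had a single Foxp3 UMI. Foxp3 was at 51.2 CPM in splenic cells, and 112 of them had a Foxp3 UMI when thinned. The cells without a Foxp3 UMI can therefore include Foxp3+ cells whose transcript was missed, and how many was not tested. Few differences by this split thus do not show that Foxp3+ and Foxp3- cells were alike. Bcl2a1d was at 117 (103 to 132) in cells with a Foxp3 UMI and 197 (186 to 207) in cells without, a ratio of 0.594 (0.520 to 0.678). It was the 1 gene of 9 past 1.5-fold, against 14.9% of 8562 genes in either direction, 6.98% higher and 7.95% lower. None of the 9 was past 2-fold, where 4.52% of genes were. Leaving out Ccl5-high cells ended this: Bcl2a1d was then at 117 with and 162 without a Foxp3 UMI, within 1.5-fold.

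The others were closer together in the reported setting. Bcl2l11 was at 32.2 and 34.2, a ratio of 0.940 (0.715 to 1.22), Mcl1 at 120.2 and 122, and Bax at 246 and 236. Bcl2 was at 48.5 and 62.0, a ratio of 0.782 (0.630 to 0.965), and Bcl2a1b at 426 and 383, a ratio of 1.11 (1.03 to 1.196). Over 11 alternatives the splenic log2 ratio was between -1.46 and 0.34 for Bcl2l11 and between -0.72 and -0.10 for Bcl2. For Pmaip1 it was between -0.68 and 0.67. The 28 intestinal cells with a Foxp3 UMI held 149331 UMIs, which left 5 of the 9 genes with enough UMIs. Bcl2a1d, Bcl2l11 and Mcl1 were lower in them than in the other intestinal cells, at 214 against 336, 80.4 against 160.1 and 100.5 against 249, where 24.7% of 2026 genes were past 1.5-fold, 12.4% higher and 12.3% lower. Mcl1 was past 2-fold, with 8.05% of genes. Of these 28 cells 9 were Ccl5-high, against 1112 of the other 1250, and without Ccl5-high cells Bcl2l11 had a log2 ratio of 0.32, the other direction, and Bcl2a1d was at 253 with and 353 without a Foxp3 UMI, within 1.5-fold. Bak1 was at 161 against 63.1 CPM, a ratio of 2.55 (1.61 to 3.86), on 24 UMIs in these cells. It was not counted because the minimum is set on the UMIs expected at the pooled level of both groups. The counted Bcl2a1d, Bcl2l11 and Mcl1 rested on 32, 12 and 15 UMIs in these cells.

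Bcl2l11 UMIs per Bcl2 UMI, a death gene set against a survival gene, were 0.575 in the spleen (0.499 to 0.663) and 3.64 in the intestine (3.13 to 4.25). In the spleen the ratio was 1.30 (0.897 to 1.90) in Ccl5-high cells and 0.496 (0.423 to 0.580) in the others. In the intestine it was 4.15 (3.52 to 4.90) and 1.08 (0.671 to 1.75). The ratio of transcripts is not that of proteins. Pmaip1 UMIs per Mcl1 UMI were 0.117 in the spleen (0.0966 to 0.140) and 0.199 in the intestine (0.172 to 0.228).

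**Figure D4:**
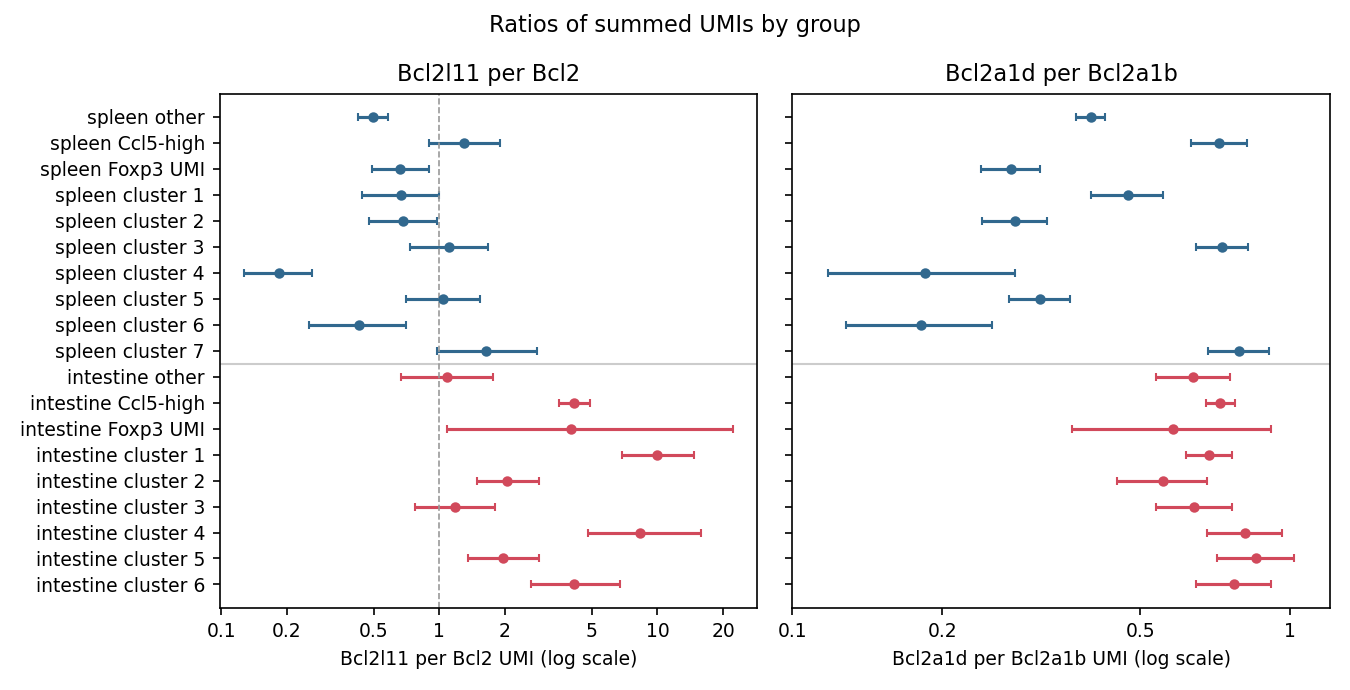
Bcl2l11 UMIs per Bcl2 UMI and Bcl2a1d UMIs per Bcl2a1b UMI (log axes) by group and graph cluster, spleen in blue and small intestine in red; bars are exact 95% intervals for counting error. The lowest Bcl2l11 to Bcl2 ratio is in splenic cluster 4 and the highest in intestinal cluster 1.

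Graph clusters, built without the 9 genes, Foxp3 and Ccl5, showed where in each tissue the genes were high. Bcl2 peaked in splenic cluster 4, led by Klf2, Pdcd4 and Malat1 and also high in Ccr7 and Tcf7, at 220 CPM (191 to 252) against 25.1 to 60.5 in the other 6 splenic clusters. A Bcl2 UMI was found in 28.6% of the thinned cells there. The same cluster was the lowest of all 13 in Bcl2l1, at 10.4, Bcl2a1b, at 151 (128 to 178), and Bcl2a1d, at 28.0 (18.5 to 40.8), and it held 0.184 Bcl2l11 UMIs per Bcl2 UMI (0.127 to 0.260). Il7r, the interleukin-7 receptor gene, was at 289.5 there and between 18.4 and 219 in the other splenic clusters.

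The A1 genes were highest in 2 clusters led by chemokine or granzyme genes. Splenic cluster 7, led by Ccl5, Ccl4 and Nkg7, had Bcl2a1d at 457 (411 to 506) and Bcl2a1b at 580, beside Bcl2 at 31.1. Intestinal cluster 6, led by Gzma, Serpinb6b and Sdf4, had 452 and 587, beside Bcl2 at 45.2. The first was the highest of the 13 for Bcl2a1d and the second for Bcl2a1b, with overlapping intervals. Leading genes of this kind did not by themselves mark high A1 levels. Gzma also led intestinal cluster 5, which had the lowest intestinal Bcl2a1b, at 317. It led intestinal cluster 2 too, which had the lowest intestinal Bcl2a1d, at 207. Splenic cluster 3, led by S100a6, had Bcl2a1d at 351. Splenic cluster 6, led by the growth genes Ncl, Mif and Eif5a, was low in both A1 genes, at 46.5 and 256, and highest of all 13 in Bax, at 307 (272 to 345).

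Bcl2l11 was higher in each of the 6 intestinal clusters, from 71.9 to 197, than in any of the 7 splenic clusters, from 25.9 to 51.0. Its lowest intestinal value was in cluster 3, led by Capg, Emb and Tmsb10, where 33 of 182 cells were Ccl5-high, and its highest in cluster 1, led by Gzma, Plac8 and Ccl5. Bcl2 was lowest of all 13 clusters in that same intestinal cluster 1, at 19.9 (13.6 to 28.1), which gave 9.91 Bcl2l11 UMIs per Bcl2 UMI (6.88 to 14.7). Mcl1 was between 197 and 273 in the intestinal and between 104 and 145 in the splenic clusters. For both genes the values of the tissues did not overlap, but the intervals of the lowest intestinal and the highest splenic cluster did.

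Pmaip1 was between 38.5 and 58.3 in the intestinal clusters. In the spleen it reached 35.1 (25.8 to 46.6) in cluster 3, led by S100a6, Nkg7 and Lgals1, and had 0 UMIs in cluster 6, which allows up to 3.24 CPM by the 3-UMI limit. Bak1 varied least, from 52.7 to 111, with no gap between neighbours in its order.

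**Figure D5:**
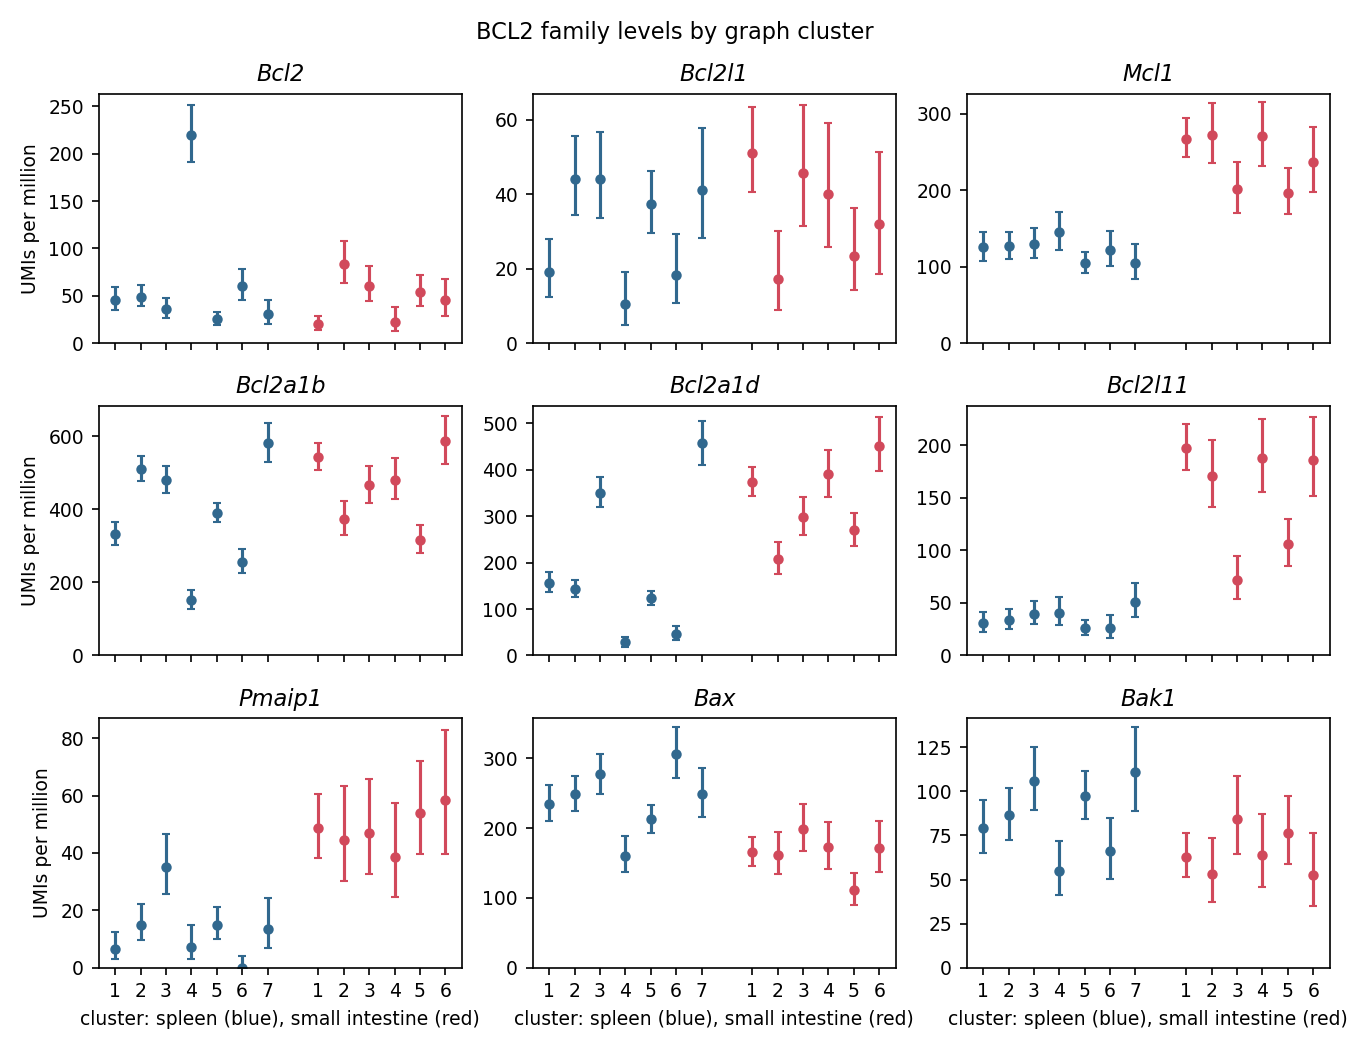
CPM of each gene in 7 splenic (blue) and 6 intestinal (red) graph clusters; bars are exact Poisson 95% intervals and axes start at 0. Splenic cluster 4 is highest for Bcl2 and lowest for Bcl2l1, Bcl2a1b and Bcl2a1d, and the point of every intestinal cluster is above that of every splenic cluster for Bcl2l11, Mcl1 and Pmaip1, with overlap of the nearest intervals.

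Over the 13 clusters the 6664 genes with at least 50 UMIs in each tissue were ranked by the correlation of their log2 levels with those of each gene, as a description only, since clusters of a tissue share a library. Each r pools both tissues, so a difference between the tissues enters it, and no r within a tissue is given. Bcl2a1b was most like Btg3 (r = 0.956) and next most like Il10, the gene of the sorted cytokine (r = 0.916). Mcl1 was most like Birc2, which encodes the inhibitor of apoptosis cIAP1 (r = 0.965), Bcl2a1d like Jak3, the kinase of the common gamma chain receptors (r = 0.934), and Bcl2l11 like Abcb1a, a drug efflux pump gene (r = 0.978). Bcl2 had weaker likenesses, Pcm1 being the nearest (r = 0.872). Bax was nearest to the mitochondrial genes Mtx2, Mrpl46 and Mrpl36 (r = 0.947, 0.941 and 0.936), Bak1 to S100a6 (0.942), Bcl2l1 to Tmed7 (0.959) and Pmaip1 to Aplp2 (0.977). Among the 9 genes, Bcl2l11 and Mcl1 were closest (r = 0.944), and Bcl2 was opposite to Bcl2l1 (r = -0.79) and Bcl2a1b (r = -0.78). Bcl2l11 and Mcl1 were both higher in every intestinal than in any splenic cluster. Within the spleen they parted in cluster 7, which had the highest splenic Bcl2l11, at 51.0, and the lowest Mcl1, at 104.

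Cells called G2/M, which were left out of the kept cells, were set beside them. The kept cells were not free of division genes. Summed proliferation markers (Mki67, Top2a and Birc5) were at 259 CPM in kept splenic and 72.9 in kept intestinal cells. Splenic cluster 5, led by Hmgb2, Stmn1 and H2afz, held 217 kept cells, 93 of them with a Foxp3 UMI. The part of dividing cells in the differences was not tested. In 179 splenic G2/M cells Bcl2l1 was at 19.6 (13.4 to 27.6) against 32.3 in the kept cells, Bax at 179 (159 to 201) against 239, and Bcl2l11 at 34.2 against 33.7. In 61 intestinal G2/M cells Bcl2l11 was at 103 (74.2 to 140.3) against 158.

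Other genes of the pathway were read from lists. Their counts stand beside 9873 genes with enough UMIs between the tissues, 24.5% of them past 1.5-fold higher and 22.8% lower in the spleen. Of 17 further BCL2 family genes, 12 had enough UMIs between the tissues, and 3 were past 1.5-fold higher and 4 lower in the spleen. Bid, the BH3-only link from death receptors to mitochondria, was at 34.6 CPM in the spleen and 4.37 in the intestine, 7.92-fold higher in the spleen (5.14 to 12.8). Bnip3, a hypoxia-responsive gene of mitophagy, was 5.03-fold and Bbc3, which encodes the p53 target PUMA, 1.79-fold higher in the spleen. The 4 lower ones were the further A1 copies Bcl2a1c, 3.55-fold (2.38 to 5.36), and Bcl2a1a, 2.75-fold higher in the intestine (2.05 to 3.71), and Bcl2l15 (3.03-fold, on 15 and 25 UMIs) and Bcl2l2 (2.73-fold, on 14 and 21 UMIs). The A1 copies share sequence, so their counts are uncertain as well. The BH3-only genes thus did not share a direction: Bid and Bbc3 were higher in the spleen, and Bcl2l11 and Pmaip1 in the intestine.

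Of 14 caspase, apoptosome and inhibitor genes, 3 were past 1.5-fold higher and 2 lower in the spleen, and 9 were within it. Cycs, which encodes cytochrome c, was at 368 and 148, and Birc5, the survivin gene, which also marks division, at 111 and 30.6. Apaf1, the apoptosome scaffold, was at 17.9 and 56.0, and Birc2 at 37.1 and 115. The death receptor Fas and its ligand were opposite. Fas was at 103 in the spleen and 14.1 in the intestine (7.32-fold higher in the spleen), and Fasl at 10.0 and 75.7. These were 2 of 4 genes of 8 past 1.5-fold, with Tnfrsf1a and Tnfsf10, both lower in the spleen. In splenic Ccl5-high cells Fasl was at 37.6 against 6.52 in the other cells, and Fas at 70.3 against 107.

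Of 14 survival receptor and regulator genes, 4 were higher and 6 lower in the spleen. Il2ra, the inducible interleukin-2 receptor chain, was at 157 and 23.6, and Il7r at 133 and 62.4. Cdkn1a, a cell cycle inhibitor gene and p53 target, was at 34.1 in the spleen and 244 in the intestine, 7.18-fold higher in the intestine (6.33 to 8.15), while Trp53 itself was at 132 and 87.2. Foxo1 was at 50.9 and 109, and Foxo3 at 7.20 and 18.5, both lower in the spleen as Bcl2l11 was. Whether either gene had a part in the Bcl2l11 difference was not tested.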

How the data were processed

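Per the study's methods, the authors demultiplexed and aligned the reads with Cell Ranger to Mm10 after trimming with Trimmomatic, and deposited UMI counts per gene and cell. Tool versions are not given in the sources used here. From these counts, cells more than 3 median absolute deviations low in UMIs or genes or high in mitochondrial share were removed (90 splenic, 135 intestinal), and then cells called G2/M by cyclone (179 and 61). Scrublet marked 4 doublets per library. The 3 per library that were among the kept cells were left in, and were removed in an alternative. Totals were 11103530 and 5693395 UMIs. Levels are CPM (UMIs per 1000000, over the summed UMIs of a group) with exact Poisson intervals, ratios have exact conditional binomial intervals and shares exact Clopper-Pearson intervals, each at 95% and for counting error only. Genes with at least 10 expected UMIs in each group were counted as past 1.5-fold. Shares were also computed after thinning cells to 2000 UMIs (1446 and 1170 cells were deep enough). Clusters came from a shared neighbour graph without the 9 genes, Foxp3 and Ccl5. With 1 library per tissue no test was run, and the steps were checked on simulated data.

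The 9 genes and the lists were chosen with earlier results of these data known, and the early response list was added after seeing the data. All 9 genes are named, with list genes past 1.5-fold and with 1 to 3 of the 3 genes most like each over clusters. Upstream windows are RefSeq (GRCm38.p6) and gene overlaps GENCODE, and 8 of the 9 genes had a window. Tools were R 4.3.3, scran 1.30.0, scuttle 1.12.0, bluster 1.12.0, igraph 2.1.4, Python 3.11.15, numpy 2.4.6, scipy 1.17.1, pandas 2.3.3, scanpy 1.11.5, matplotlib 3.10.9 and Biopython 1.88. Alternatives changed the fold, the total, the state marker, the thinning and the cells kept. Some genes of the lists are not reported here by name.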

Additional observations from a re-analysis of the deposited data

Results flagged for a closer look

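Bcl2a1b as reported differed in the direction of its Ccl5-high contrast between the tissues, within 1.5-fold in each. Its log2 ratio of Ccl5-high to other cells was 0.51 for splenic and -0.21 for intestinal cells, with 1 library per tissue, and the difference was not tested. Over 12 alternatives the splenic ratio was between 0.42 and 0.67. The intestinal ratio was between -0.27 and 0.04, so its direction depended on the setting.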

How the results depend on the processing

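Each value was recomputed under the alternatives. Of the counts and ratios that answer a comparison, 85 stayed close to the reported value and 23 moved. A count or share was called close when it was within a factor of 1.5 of the reported one. The tissue count over all kept cells, which rose when thinned, was therefore among those called close. Of values for single genes 734 stayed, 74 moved and 1 that was past 1.5-fold as reported changed direction. That was Bcl2l11 for the intestinal Foxp3 contrast among cells that are not Ccl5-high, with a log2 ratio of 0.32. Changes of sign in genes within 1.5-fold as reported were not counted there, and some occurred. Between the tissues in Ccl5-high cells, the log2 ratio of Bcl2a1d was 0.22 as reported. Over 12 alternatives it was between -0.12 and 0.29. No paired analysis was possible because there is 1 library per tissue.

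The count past 1.5-fold for the splenic Foxp3 contrast, 1 as reported, was 0 at 2-fold, with pooled size factors, among cells that are not Ccl5-high and with Foxp3 read from thinned cells, and 2 with thinned levels or at least 2 Foxp3 UMIs. The intestinal Foxp3 count of 3 was 1 at 2-fold and with at least 2 Foxp3 UMIs. The splenic Ccl5 count of 2 was 5 with the state from Nkg7, and the intestinal count of 1 was 2 with Nkg7, pooled size factors or thinning. The further intestinal gene was Bcl2 each time, lower in the Ccl5-high or Nkg7-high cells. The tissue count was 3 in place of 5 in Ccl5-high cells at 2-fold, and 2 in place of 4 in other cells at 2-fold or thinned. Over all kept cells it was 4, and 6 when thinned or without ribosomal and mitochondrial genes. Apart from 2-fold, the share of all genes past the fold is not given for these alternatives, so those counts have no background. Without the minimum of UMIs, the share of all genes past 1.5-fold was 36.51% and 67.03% for the splenic and intestinal Foxp3 contrasts, 45.76% and 53.2% for the Ccl5 contrasts, and 57.29% and 60.94% between tissues in Ccl5-high and other cells. Bcl2l11 UMIs per Bcl2 UMI were 0.493 in the thinned spleen and 4.74 in the intestine without cells with a Cd8 UMI. In Ccl5-high cells the difference between tissues fell within 1.5-fold for Bax without the 20 leading genes in the total and for Bak1 with the state from Nkg7. Depth limits the genes with a UMI in few splenic cells, Pmaip1 (7.28%), Bcl2l11 (16.2%), Bcl2l1 (16.9%) and Bcl2 (22.1%).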
